A study of Homo sapiens with 2 samples.

Results

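The genes of the MHC class I presentation pathway were examined in REH and 697, established human lines of B-cell precursor acute lymphoblastic leukemia. The set holds 9 genes, given as a list of symbols, out of 57773 gene rows. It comprises the heavy chain genes HLA-B, HLA-C, HLA-E and HLA-F, the light chain gene B2M, the peptide transporter genes TAP1 and TAP2, the loading factor gene TAPBP and the regulator gene NLRC5. All 9 matched a single gene ID and passed the minimum of 10 reads in a library, which 19145 genes passed in all. The ETV6/RUNX1 fusion is present in REH, in which the second ETV6 allele is deleted, whereas 697 is the fusion-negative line of the pair. Both lines were grown in RPMI with fetal bovine serum, and no agent was added to either. Total RNA of each line was sequenced once, so no test was possible, and every difference below is between 1 REH library and 1 library of 697 cells. The intervals given are 95% counting intervals and say nothing about the variation between cultures.

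MHC class I molecules show fragments of a cell's own proteins to cytotoxic T cells and natural killer cells. The proteasome cuts proteins into peptides, TAP1 and TAP2 together carry them into the endoplasmic reticulum, tapasin (the product of TAPBP) holds an empty molecule beside the transporter, and the peptide is loaded onto a heavy chain paired with beta-2-microglobulin. NLRC5 is the transactivator of class I genes and acts through a promoter complex of RFX, CREB/ATF and NF-Y factors, while interferon and NF-kB signalling can raise the same genes. B-lineage cells normally carry class I molecules on their surface, and loss of them is a known route by which tumour cells avoid T cells.

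Short promoter elements through which those factors are known to act were searched for in these genes, and the stretches that hold matches are shown because the genes are often read as a co-regulated set. RefSeq promoter windows (GRCh38.p14, 250 bases before to 50 bases after the start) were at hand for 7 of the 9 genes, with HLA-E and NLRC5 not matched. Capitals mark matches, on either strand, to CCAAT (the NF-Y element), TGACG (core of a cyclic AMP response element), GAAANNGAA (core of an interferon-stimulated response element) and GGGGATTCC (core of an NF-kB element). Each stretch is written 5′ to 3′ on the strand of the gene and ends before the start. The 2 classical heavy chain genes come first, then HLA-F, the light chain gene, the transporter genes and the tapasin gene.
HLA-B, chr6:31357226-31357361, minus strand: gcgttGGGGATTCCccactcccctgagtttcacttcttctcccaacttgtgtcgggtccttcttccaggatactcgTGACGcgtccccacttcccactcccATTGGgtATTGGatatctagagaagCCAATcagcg
HLA-C, chr6:31272139-31272289, minus strand: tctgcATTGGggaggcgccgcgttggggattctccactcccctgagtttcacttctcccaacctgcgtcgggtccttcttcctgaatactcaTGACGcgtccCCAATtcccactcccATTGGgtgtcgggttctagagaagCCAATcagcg
HLA-F, chr6:29723274-29723386, plus strand: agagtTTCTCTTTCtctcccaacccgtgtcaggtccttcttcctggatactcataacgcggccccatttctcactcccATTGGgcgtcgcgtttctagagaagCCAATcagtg
B2M, chr15:44711368-44711477, plus strand: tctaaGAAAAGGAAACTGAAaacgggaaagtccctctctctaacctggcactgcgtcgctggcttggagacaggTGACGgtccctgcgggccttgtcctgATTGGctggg
TAP1, chr6:32853818-32853954, minus strand: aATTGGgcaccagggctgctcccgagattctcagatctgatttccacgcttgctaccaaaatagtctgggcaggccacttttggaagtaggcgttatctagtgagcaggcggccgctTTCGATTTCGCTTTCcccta
TAP2, chr6:32838765-32838802, minus strand: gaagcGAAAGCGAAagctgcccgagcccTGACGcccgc
TAPBP, chr6:33314079-33314103, minus strand: tggagGAAAGTGAAAGTGAAaggag

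The TGACG and CCAAT letters started within 40 bases of each other in HLA-B, HLA-C and B2M, an arrangement found in 3.86% of all 35116 windows. The interferon element core matched in HLA-F, B2M, TAP1, TAP2 and TAPBP, against 8.11% of all windows, and overlapping matches stood in B2M, TAP1 and TAPBP. TAP1 has 2 windows in the table, and all of its matches were in the one shown. GGGGATTCC matched in HLA-B alone among the 7 genes and in 0.285% of all windows. CCAAT alone was present in 34.6% of windows and TGACG alone in 24.6%, so either by itself is common. A match describes letters in the reference and not a bound factor. Lack of a match does not show that an element is absent, since a site with other letters goes unmarked.

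The REH library held 63954817 reads, of which 45188375 were counted in genes, and the 697 library held 58948890 and 41097497. Reads that mapped to several places, which were left out of gene counts, made up 10.8% and 15.4%. The cell type was checked on 10 B-precursor markers, all of which passed the minimum. They summed to 4327 CPM (read counts relative to library totals scaled by TMM) in REH and 7790 CPM in 697. DNTT alone stood at 1142 CPM in REH and 4433 CPM in 697. Of the 10 markers, 5 were higher in REH and 5 in 697, and VPREB1 had 3 reads in REH against 10039 in 697. Summed levels of the T-cell, NK-cell, erythroid and epithelial markers stayed at or below 0.935 CPM, and those of the stromal and endothelial markers at 9.73 and 10.6 CPM, nearly all from COL1A1. The 5 myeloid markers summed to 253 CPM in REH, where MPO had 12643 reads, and to 2.27 CPM in 697. Whether these markers have a part in the class I values was not tested.

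All 9 genes were read well above the 3-read limit of the depth (0.0664 CPM in REH and 0.073 CPM in 697, before scaling), with between 1675 and 63153 reads in each library. None of the 9 reached a log2 ratio of 2 in either direction, against 12.5% of all genes higher in REH and 8.15% higher in 697. At a log2 ratio of at least 1 the number was again 0 of 9, against 22.4% and 17.4% of all genes. On the log2 scale 5 genes had a ratio above 0 and 4 below 0, and the median of the 9 was 0.02, where the median of all genes tested was 0.05. The median size of the ratio was 0.44 for the 9 genes, 0.74 for all genes and 0.50 for the 9531 genes whose summed reads reached 1000. The set took 0.472% of gene reads in REH (Wilson interval 0.470% to 0.474%) and 0.434% in 697 (0.432% to 0.436%).

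**Figure D1:**
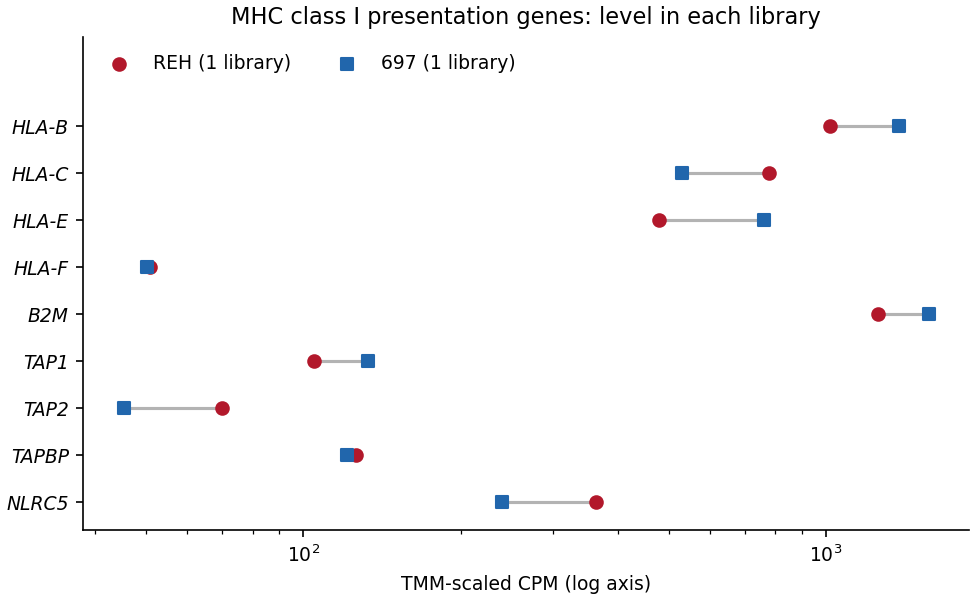
TMM-scaled CPM (log axis) of the 9 genes, with a circle for the REH library and a square for the 697 library joined by a grey line. B2M and HLA-B lie farthest right in both libraries, and the circle and square of HLA-F nearly coincide.

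The classical heavy chains HLA-B and HLA-C, which present peptides to T cells, went in opposite directions. HLA-B (ENSG00000234745, chromosome 6, 31353872 to 31367067, minus strand, GRCh38) had 51052 reads or 1016 CPM in REH and 51018 reads or 1381 CPM in 697. Its level was 1.36-fold higher in 697, with a log2 ratio of -0.44 (interval -0.46 to -0.43). HLA-C (ENSG00000204525, 31268749 to 31272130, minus strand) had 39084 reads or 778 CPM in REH and 19626 reads or 531 CPM in 697. The difference was in favour of REH by 1.46-fold, a log2 ratio of 0.55 (0.52 to 0.57). Within each library the comparison needs no scaling: there were 0.766 HLA-C reads for each HLA-B read in REH and 0.385 in 697, a log2 difference of 0.99 (0.96 to 1.02). When reads that overlap a gene on the other strand were kept, that difference was 1.05.

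The non-classical heavy chains are less variable between people. HLA-E, a ligand of the CD94/NKG2 receptors of natural killer cells (ENSG00000204592), spans 30489509 to 30494194 on the plus strand. It had 24070 reads or 479 CPM in REH and 28095 reads or 760 CPM in 697. Its log2 ratio of -0.67 (-0.69 to -0.64), or 1.59-fold higher in 697, was the farthest from 0 among the 9 genes on TMM-scaled totals. It was -0.36 on unscaled totals, where TAP2 (0.93), NLRC5 (0.91) and HLA-C (0.86) were farther from 0. HLA-F (ENSG00000204642, 29722775 to 29738528, plus strand), whose role is less well defined, had 2560 reads or 50.9 CPM in REH and 1854 reads or 50.2 CPM in 697. The log2 ratio of 0.02 had an interval that held 0 (-0.07 to 0.11), and its sign was reversed with DESeq2 size factors (-0.0062).

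Of the reads of these 4 heavy chain genes, HLA-B took 43.7% in REH and 50.7% in 697. HLA-C took 33.5% and 19.5%, and HLA-E took 20.6% and 27.9%. HLA-F remained near 2% in both, at 2.19% and 1.84%. The order of HLA-C and HLA-E by reads was thus different in the libraries, with 0.616 HLA-E reads for each HLA-C read in REH and 1.43 in 697 (log2 difference -1.22, interval -1.25 to -1.18). Per kb of merged exon the same ratios were 0.528 and 1.23, and per kb of the canonical transcript 0.373 and 0.866, so the order in 697 depended on the length used.

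**Figure D2:**
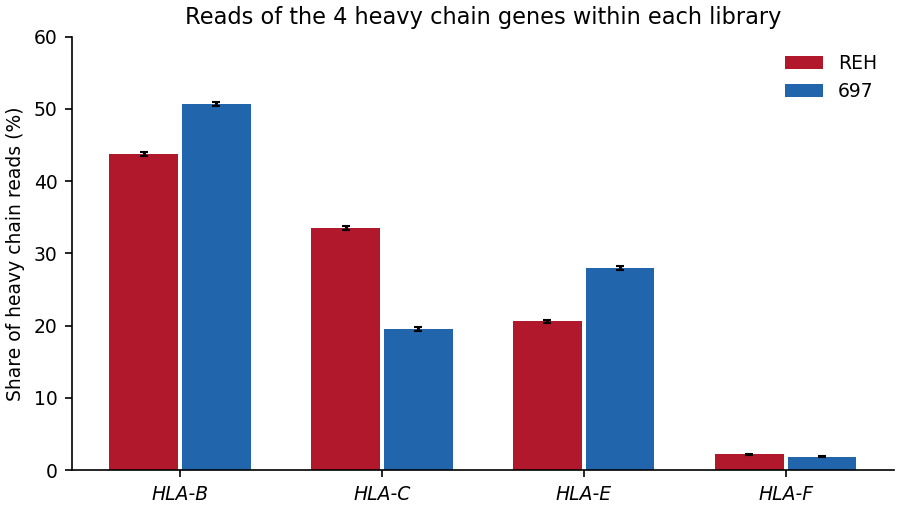
Share (%) of the reads of the 4 heavy chain genes taken by each of them, in REH and in 697; error bars are 95% Wilson intervals and cover counting error only. HLA-C is at 33.5% in REH and 19.5% in 697, while the shares of HLA-B and HLA-E are higher in 697.

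The light chain gene B2M (ENSG00000166710, chromosome 15, 44711358 to 44718851, plus strand) pairs with every class I heavy chain and had more reads than any other member. It had 63153 reads or 1256 CPM in REH and 57988 reads or 1570 CPM in 697, a log2 ratio of -0.32 (-0.34 to -0.30). Without scaling factors this ratio was -0.014, so nearly all of its size came from the scaling. The sum of the 4 heavy chains came to 1.85 reads for each B2M read in REH and 1.735 in 697. That balance differed by 0.092 on the log2 scale (0.072 to 0.11), which is less than the 0.99 of HLA-C to HLA-B.

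The transporter is made of TAP1 and TAP2, ATP-driven half-transporters that work as a pair, and the pair was not matched between the libraries. TAP1 (ENSG00000168394, chromosome 6, 32845209 to 32853816, minus strand) had 5265 reads or 105 CPM in REH and 4912 reads or 133 CPM in 697, a log2 ratio of -0.34 (-0.40 to -0.29) that was -0.037 on unscaled totals. TAP2 (ENSG00000204267, 32821833 to 32838739, minus strand) had 3508 reads or 69.8 CPM in REH and 1675 reads or 45.3 CPM in 697. Its level was 1.54-fold higher in REH, with a log2 ratio of 0.62 (0.54 to 0.71). In REH there were 0.666 TAP2 reads for each TAP1 read and in 697 there were 0.341, a log2 difference of 0.97 (0.87 to 1.07). Per kb of merged exon TAP2 stood at 0.305 of TAP1 in REH and 0.156 in 697, below TAP1 in both. The loading factor gene TAPBP (ENSG00000231925, 33299694 to 33314284, minus strand) had 6338 reads or 126 CPM in REH and 4477 reads or 121 CPM in 697. Its log2 ratio of 0.06 (0.0019 to 0.11) was among the smallest of the 9, and 4.50% of all genes had a smaller one in size.

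NLRC5 (ENSG00000140853, chromosome 16, 56989485 to 57083531, plus strand), the regulator, had 18265 reads or 363 CPM in REH and 8865 reads or 240 CPM in 697. Its level was 1.51-fold higher in REH, with a log2 ratio of 0.60 (0.56 to 0.64). For each B2M read there were 0.289 NLRC5 reads in REH and 0.153 in 697, a log2 difference of 0.92 (0.88 to 0.96). HLA-C, TAP2 and, nearer to 0, TAPBP were on the same side of 0 as NLRC5, whereas HLA-B, HLA-E, B2M and TAP1 were on the other side on every setting run.

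**Figure D3:**
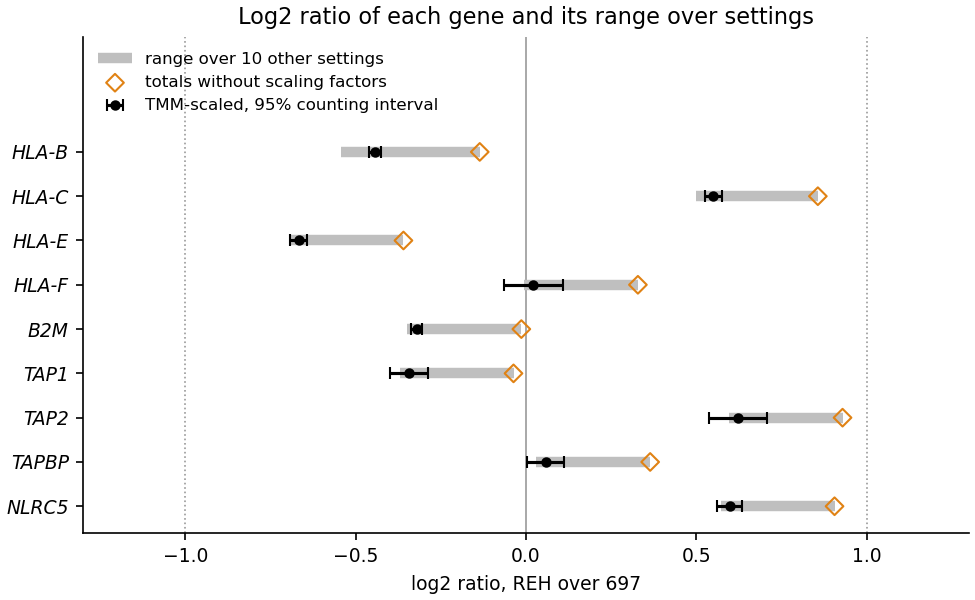
Log2 ratio of REH over 697 for each gene (points, with 95% counting intervals), its range over 10 other settings (grey bars) and its value on totals without scaling factors (open diamonds); dotted lines mark a log2 ratio of 1 in size. All points and bars lie between the dotted lines, from -0.69 for HLA-E to 0.93 for TAP2.

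The level of each gene was ranked among the 13489 protein-coding genes tested, per kb of merged exon. B2M was at rank 30 in REH and 42 in 697, HLA-C at 42 and 110, HLA-B at 57 and 76 and HLA-E at 78 and 88. NLRC5 followed at rank 1210 and 2359, TAP1 at 1766 and 1519 and TAPBP at 2171 and 2518. HLA-F was at 3704 and 3904 and TAP2 at 5788 and 7225. In REH the order of the levels was B2M (403 CPM per kb), HLA-C (310), HLA-B (220), HLA-E (164), NLRC5 (29.3), TAP1 (22.1), TAPBP (19.0), HLA-F (11.8) and TAP2 (6.74). In 697 it was B2M (503), HLA-B (299), HLA-E (260), HLA-C (212), TAP1 (28.1), NLRC5 (19.4), TAPBP (18.2), HLA-F (11.6) and TAP2 (4.38). With the canonical transcript length HLA-B came before HLA-C in REH as well, at 661 against 504 CPM per kb. Spread between cultures is not known, so neighbours in this order cannot be separated beyond counting error. The ranks also depended on the length used. Per kb of the canonical transcript B2M was at rank 11 in REH and 37 in 697, and HLA-B at 44 and 65. HLA-C was then at 64 and 145, HLA-E at 185 and 167 and NLRC5 at 1160 and 2208. TAP1 was at 1755 and 1486, TAPBP at 1913 and 2224, HLA-F at 2068 and 2322 and TAP2 at 5349 and 6853.

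Counting left part of the reads of 3 members aside. Between 47.2% and 51.9% of the strand reads of each member fell in the first strand column, so the counts did not separate strands. For HLA-B, HLA-F and TAP1 an annotated gene lies on the opposite strand, and reads in the shared stretch were counted for neither gene. The reads set aside came to 20.1% in REH and 23.3% in 697 of those on either strand for HLA-B, 34.2% and 33.7% for HLA-F and 28.7% and 23.3% for TAP1. The overlapping genes are ENSG00000271581, an unprocessed pseudogene inside HLA-B, HLA-F-AS1 with a further 2 pseudogenes at HLA-F, and the lncRNA PSMB8-AS1 at TAP1. PSMB8-AS1 had 1191 reads of its own in REH and 557 in 697. The counts cannot tell which of the overlapping genes the reads set aside came from. With all of them kept for the member, the log2 ratio was -0.49 for HLA-B, 0.05 for HLA-F and -0.23 for TAP1. The other 6 genes lost none in this way. Overlap on the same strand cannot be recovered from any of the 3 count columns. For TAP2, 2023 of its 10357 exon bases are shared in this way with ENSG00000250264, which had 0 reads in both libraries. For HLA-B, 1421 of 4623 exon bases are shared with the pseudogene DHFRP2, which had 1 read in REH and 0 in 697. These overlaps are those of GENCODE 44, and the release used for counting may differ.

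**Figure D4:**
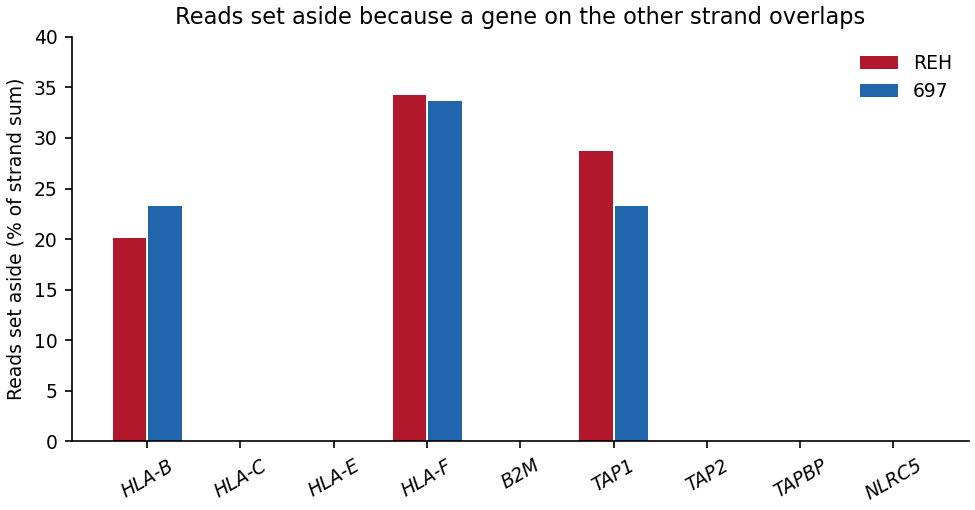
Reads set aside as ambiguous with a gene on the other strand, as a percentage of the sum of both strand columns, for each gene in REH and in 697. Bars stand for HLA-B, HLA-F and TAP1 and are at 0 for the other 6 genes.

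The heavy chains also resemble one another, which matters because reads with several equal positions were dropped. Their reference coding sequences were 92.6% identical between HLA-B and HLA-C and 84.5% to 86.9% identical in the other 5 pairs. Of all 75-base stretches in the canonical transcript, 2.30% for HLA-E, 1.98% for HLA-C, 1.81% for TAPBP, 0.230% for TAP1 and 0.108% for TAP2 also occurred in a transcript of a gene elsewhere, and 0% for HLA-B, HLA-F, B2M and NLRC5. At 50 bases the shares were 7.59% for TAPBP, 6.76% for HLA-C, 6.16% for HLA-E and 2.56% for HLA-B. They were 1.89% for HLA-F, 1.18% for TAP1, 0.554% for TAP2 and 0% for B2M and NLRC5. The length of the reads is not given in the sources used here. These shares hold for the reference allele: HLA-B and HLA-C are the most variable of these genes between people, and how far the alleles of each line match the reference, and with it the mapping of their reads, was not tested.

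The longest stretch shared without a mismatch is shown for each of 2 pairs whose balance differed between the libraries, because reads wholly inside it cannot be assigned. HLA-B and HLA-C share 66 coding bases from coding base 420 of each, and TAP1 and TAP2 share 80 from coding base 1594 of TAP1 and 1489 of TAP2. Capitals in the latter mark the codons of the Walker A motif, which binds ATP. Over 1987 aligned coding bases TAP1 and TAP2 were 63.3% identical. HLA-C and HLA-E, whose balance also differed, share a longer run than HLA-B and HLA-C. It has 75 coding bases and is not shown.
HLA-B and HLA-C: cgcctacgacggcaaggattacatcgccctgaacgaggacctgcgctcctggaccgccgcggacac
TAP1 and TAP2: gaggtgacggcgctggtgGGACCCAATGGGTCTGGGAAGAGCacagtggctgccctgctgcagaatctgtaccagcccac

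The wider pathway was described with 9 lists of 67 genes in all, of which 63 passed the minimum. Past a log2 ratio of 2 there were 3 genes on the REH side and 2 on the side of 697, against the 12.5% and 8.15% of all genes given above. Of the 63, 31 had a ratio above 0 and 32 below 0. Over all genes tested 52.1% were above 0 and 39.8% past a log2 ratio of 1 in size, and on unscaled totals 64.1% were above 0. These shares of all genes were not matched to the lists on read counts. The median size of the ratio was 0.74 for all genes and 0.50 for those whose summed reads reached 1000.

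The immunoproteasome swaps catalytic subunits so that more peptides suit class I molecules. Its subunit genes PSMB8, PSMB9 and PSMB10 and the activator genes PSME1 and PSME2 all had ratios below 0, against 47.9% of all genes. Their median was -0.59, and 0 of 5 passed a log2 ratio of 1 in size, against 39.8% of all genes. On unscaled totals the median was -0.29, and PSMB9 and PSME2 were above 0. PSME1 was the most abundant per kb and the lowest ratio, at 9739 and 11122 reads in REH and 697 (-0.64, interval -0.68 to -0.60). PSMB9, which starts beside TAP1, was nearest to 0 with 3911 and 2921 reads (-0.02, interval -0.09 to 0.05). The constitutive counterparts PSMB5, PSMB6 and PSMB7 had a median of -0.32 (-0.012 on unscaled totals), from -0.69 for PSMB5 to 0.13 for PSMB6, and PSMB7, the most abundant per kb, had 6474 and 5936 reads. PSMB10 shares 640 of its 1626 exon bases with a gene on the same strand, so its level is uncertain. Within a library, PSMB8 had 2.58 reads for each PSMB5 read in REH and 2.41 in 697 (log2 difference 0.098, interval 0.0039 to 0.19). For PSMB9 to PSMB6 the ratios were 0.851 and 0.948, and for PSMB10 to PSMB7 they were 0.190 and 0.233 (log2 differences -0.16 and -0.29).

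Peptide trimming enzymes shorten peptides in the cytosol and the endoplasmic reticulum. All 7 had ratios below 0, against 47.9% of all genes, with a median of -0.31. Those past a log2 ratio of 1 in size were the cytosolic peptidases TPP2, with 6173 reads in REH and 10089 in 697 (-1.15, interval -1.20 to -1.11), and THOP1, with 4805 and 7098 reads (-1.01, interval -1.06 to -0.95). NRDC, the most abundant of the list per kb, had 11902 and 9478 reads (-0.12). ERAP2, which trims in the endoplasmic reticulum, had 6280 and 4788 reads (-0.05). On unscaled totals the median of this list was 0.0016, with 4 of the 7 (ERAP1, ERAP2, LNPEP and NRDC) above 0. The 6 loading genes had a median of 0.02 (-0.0056 with DESeq2 size factors and 0.33 on unscaled totals), with the chaperone gene CALR the most abundant per kb at 19550 and 14243 reads (0.01). UGGT1, a folding sensor, was the highest ratio there at 0.50 and GANAB, a glucosidase subunit, the lowest at -0.19.

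For the promoter complex through which NLRC5 acts, 0 of 8 genes passed a log2 ratio of 1 in size, against 39.8% of all genes, and the median was -0.11 (0.20 on unscaled totals). RFX5, a DNA-binding RFX subunit, had 10562 reads in REH and 7244 in 697 (0.10, interval 0.06 to 0.14). RFXAP had 1424 and 1832 reads (-0.81), and ATF1 2338 and 1080 reads (0.67). Among the 14 interferon and NF-kB genes 10 had ratios above 0, or 71.4% against 52.1% of all genes, and the median was 0.18 (0.49 on unscaled totals). NFKB1, which encodes the p105 and p50 NF-kB subunit, was past the threshold of 2, at 2217 reads (44.1 CPM) against 10470 reads (283 CPM), a log2 ratio of -2.68 (-2.75 to -2.62). Its partner gene RELA was at 83.7 and 82.2 CPM (0.03). IFNGR1, a chain of the interferon gamma receptor, had 2273 and 714 reads (1.23, interval 1.10 to 1.35). The transcription factor gene IRF1 had 8031 and 2533 reads (1.22, interval 1.16 to 1.29), and the kinase gene JAK1, the most abundant of the list per kb in 697, had 6132 and 11002 reads (-1.29). TYK2, the most abundant in REH, had 9002 and 5593 reads (0.24).

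The 3 PRC2 genes, whose complex is known to silence class I genes in some tumours, lay between -0.37 for SUZ12 and 0.12 for EZH2, and their median of -0.24 was 0.069 on unscaled totals. Of the 6 genes for class I turnover 5 passed the minimum, with a median of 0.21 that was -0.18 at a minimum of 1 read and 0.52 on unscaled totals. SUSD6 had 1367 reads in REH and 2217 in 697 (-1.14), TMEM127 had 3184 and 1235 (0.92) and WWP2 had 4494 and 1815 (0.86). These encode partners in removing class I molecules from the cell surface, and their ratios had different signs.

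Among 15 class I-like genes and class I pseudogenes 12 passed the minimum, with a median of 0.39 (0.70 on unscaled totals). FCGRT, the heavy chain of the neonatal Fc receptor that also pairs with beta-2-microglobulin, had 1849 reads in REH and 158 in 697 (3.10, interval 2.87 to 3.35). CD1A, a lipid-presenting molecule of cortical thymocytes, had 1 read in REH and 141 in 697 (-7.00, interval -12.90 to -5.08). CD1D had 11 and 0 reads, at least 2.70-fold higher in REH against a floor of 3 reads in the 697 library with the REH count taken as exact, and the lower end of its log2 counting interval was 0.88. The pseudogene HLA-V had 33 and 0 reads, at least 8.09-fold higher by the same floor (lower end of the log2 interval 2.64). HLA-H had 2669 and 916 (1.10), and HLA-L had 1611 and 1006 (0.23). Reads of these pseudogenes are uncertain, since they resemble the functional heavy chains.

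**Figure D5:**
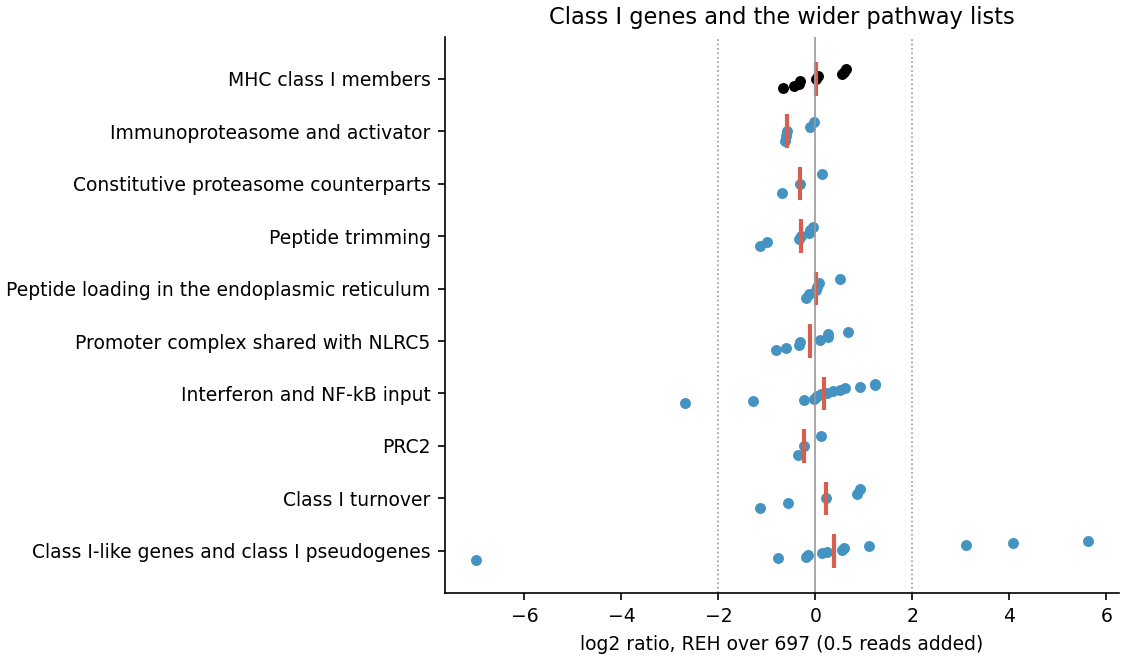
Log2 ratio (REH over 697, with 0.5 reads added) of the 9 class I genes (black) and of each gene in 9 wider lists (blue) that passed 10 reads in a library; red bars are medians and dotted lines mark a log2 ratio of 2 in size. Points outside the dotted lines are NFKB1 on the left, and CD1A, FCGRT, CD1D and HLA-V in the bottom list.

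The 7 members on chromosome 6 lie in the MHC region, between 29722775 (HLA-F) and 33314284 (TAPBP). Their median log2 ratio was 0.02, whereas the 161 other genes tested between these positions had a median of 0.59. Of those 161 genes, 70.2% had a ratio above 0, against 52.1% of all genes. Past a log2 ratio of 2, 30 of the 161 were higher in REH, against 12.5% of all genes. On the side of 697 there were 4 of the 161, against 8.15% of all genes. The 112 protein-coding genes among the 161 had a median of 0.49. The 161 genes were not matched to the members on read counts. Whether read depth has a part in the difference between the medians was not tested.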

How the data were processed

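Total RNA of REH and 697 cells was sequenced, with 1 library per line, grouped by the cell line in the labels. The authors deposited raw counts of reads per gene from STAR, not normalized, in 3 count columns (either strand and each strand setting). The study's methods name hg38 and poly(A) purification, whereas the submitters' processing notes name hg19 and the labels ribodepletion and stranded libraries. The annotation release is not given in the sources used here. The either-strand column was used. Names, positions and exon lengths came from GENCODE 44 (GRCh38), in which 51996 of 57773 gene IDs matched.

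Totals were scaled with TMM in edgeR 4.0.16 (R 4.3.3; factors 1.11 and 0.899). Ratios had 0.5 reads added, with exact Clopper-Pearson intervals; differences of within-library ratios had Woolf intervals. Intervals and floors cover counting error only. The study used DESeq2, which needs replicates; DESeq2 1.42.0 served for size factors alone. The members and lists were chosen with earlier results of these data known. All 9 members were named, and from each list the most abundant gene per kb, the highest and lowest ratio and any gene past a log2 ratio of 2, with a few others chosen after their values were seen. Python 3.11.15, pandas 2.3.3 and scipy 1.17.1 were used, and the computation was tested on simulated data. Of the markers, PECAM1 was not matched.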

Additional observations from a re-analysis of the deposited data

How the results depend on the processing

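No paired analysis was possible because there was a single library of each line, and for the same reason no replicate could be left out. No member passed a log2 ratio of 2, or of 1, on any of the settings run. Unscaled totals moved the median of all genes by 0.31 towards REH. Among the members HLA-F alone changed sign (DESeq2 size factors, -0.0062). Of 90 member ratios on other settings 25 left their counting interval. List medians changed sign on unscaled totals for trimming (0.0016), the promoter complex (0.20) and PRC2 (0.069), with DESeq2 size factors for loading (-0.0056) and at a minimum of 1 read for turnover (-0.18).

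Differences of within-library ratios that left their interval were as follows, the sum of both strand columns being an alternative added after seeing the data. With strand column 3 they were 1.18 for HLA-C to HLA-B, -0.087 for HLA-E to HLA-B, -1.27 for HLA-E to HLA-C, 0.31 for TAPBP to TAP1, 0.056 for heavy chains to B2M and 0.98 for NLRC5 to B2M. With strand column 4 they were 0.92 for HLA-C to HLA-B, -1.17 for HLA-E to HLA-C, 0.85 for TAP2 to TAP1, 0.29 for TAPBP to TAP1, 0.0225 for heavy chains to B2M and 0.86 for NLRC5 to B2M. With the sum they were 1.05 for HLA-C to HLA-B, -0.17 for HLA-E to HLA-B, 0.86 for TAP2 to TAP1, 0.30 for TAPBP to TAP1 and 0.039 for heavy chains to B2M. The cause was not tested.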
